A study of Sus scrofa with 8 samples.

Results

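The genes examined here are 3 metalloproteases, MMP24, ADAM15 and ADAMTS10, and the protease inhibitor A2M, measured in back fat taken under the skin of Alentejano (AL) and Bisaro (BI) pigs. They were found by gene name and are 4 of the 458 genes for which a value per pig was given. RNA-seq was performed on 1 library from each of 4 AL and 4 BI pigs. The animals of both breeds were castrated males of pure breed, free ranging under the same conditions with free access to individually given commercial feed. The labels give a carcass weight of 150 kg for every pig, and the study's methods use the same weight for slaughter. AL pigs spent longer on trial than BI pigs, so breed and time on trial cannot be told apart.

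The value per pig is a normalized count, which is the number of reads on a gene divided by the size factor of that library. Size factors ranged from 0.675 to 1.10 in AL and from 1.06 to 1.46 in BI, and the 458 genes held between 359708 and 883622 reads per library. All 458 genes had been selected by the authors for a breed difference in these same pigs. The p-values given here therefore describe how far apart the breeds lay and are not independent evidence of a difference. With 4 pigs against 4, an exact permutation test cannot give a two-sided p below 0.029, which is reached only when no AL pig overlaps a BI pig. Log2 FC is the AL mean minus the BI mean of log2(normalized count + 1), a scale that understates the change of genes with low counts.

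Matrix metalloproteases (MMP), ADAM proteases and ADAMTS proteases cut proteins at the cell surface and in the extracellular matrix, with a zinc ion held by histidines in the active site. In adipose tissue the matrix around each fat cell is remodelled as the cell fills with lipid, and these families are known to take part. A2M, alpha-2-macroglobulin, is a large secreted glycoprotein that traps proteases of many classes once they cut its bait region, and then binds them through a reactive thioester. It is best known as a plasma protein made by the liver.

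The coding bases of these reactive sites are shown because they place the 3 proteases in one chemical class and let A2M bind the proteases that it traps. They were read from the RefSeq annotation of Sscrofa11.1 in the coding direction of each gene. In the 3 proteases the motif HExxHxxGxxH was found once per protein, and the capitals mark the codons of its 3 histidines. In A2M the motif GCGEQ was found once, and the capitals mark the codons of the cysteine and glutamine that form the thioester.
MMP24, chr17:38624994-38625026, plus strand: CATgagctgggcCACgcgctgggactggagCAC
ADAM15, chr4:94741967-94741999, minus strand: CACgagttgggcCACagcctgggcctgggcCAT
ADAMTS10, chr2:70741237-70741355, plus strand, with an intron removed: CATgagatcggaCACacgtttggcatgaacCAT
A2M, chr5:62469085-62469099, plus strand: ggcTGTggagaaCAG
The site lies in coding exon 6 of 10 in MMP24, in coding exon 11 of 24 in ADAM15 and in coding exon 24 of 36 in A2M. In ADAMTS10 it begins in coding exon 9 of 25 and continues in the next exon. The tripeptide RGD, which in other proteins is known to bind integrins, was found in ADAM15 at residue 485 and in MMP24 at residue 139, and was not found in the annotated ADAMTS10 or A2M proteins.

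A2M and MMP24 were higher in AL, and ADAMTS10 was higher in BI, with no overlap between the breeds. ADAM15 had a higher mean in BI, but 1 BI pig lay below 1 AL pig. Breeds were thus fully apart for 3 of the 4 members. The same held for 79.5% of the 458 genes of the table, so the members' count is near the background. Among the 458 genes, 48.3% were higher in AL without overlap and 31.2% were higher in BI without overlap. The limma test over the 458 genes called all 4 members and also 99.6% of the table.

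**Figure D1:**
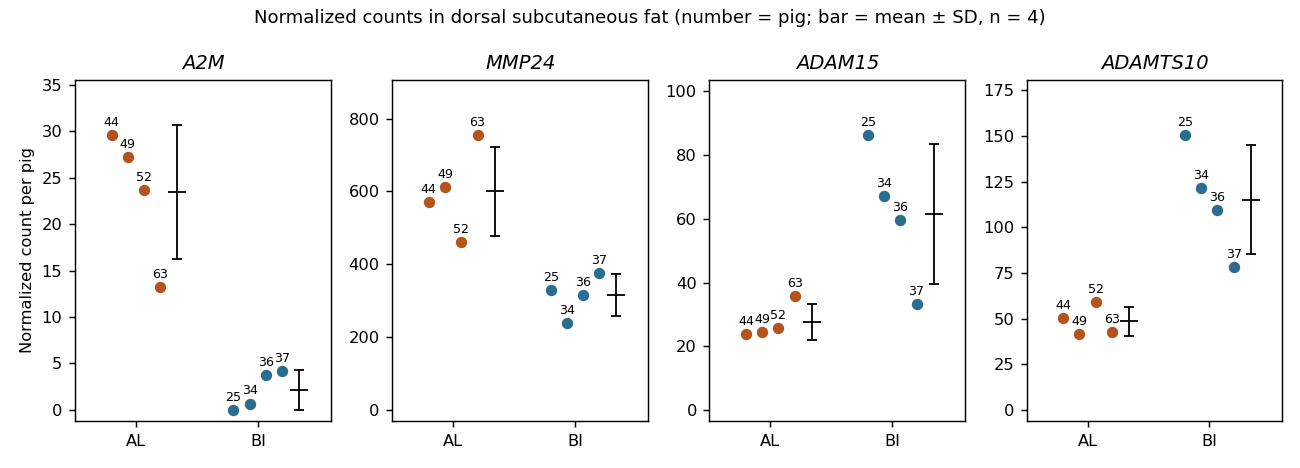
Normalized count of each of the 4 genes in every pig, with each point a pig and the mean and SD of the 4 pigs per breed. A2M lies between 13.3 and 29.6 in AL and between 0 and 4.17 in BI, and ADAM15 is the gene whose breeds overlap.

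A2M (ENSSSCG00000000660) lies on chromosome 5 from 62406928 to 62483690 on the plus strand. AL replicates 44, 49, 52 and 63 had 29.6, 27.2, 23.7 and 13.3 normalized counts. BI replicates 25, 34, 36 and 37 had 0, 0.687, 3.78 and 4.17. The lowest AL pig was 3.19 times the highest BI pig. AL averaged 23.4 ± 7.20 and BI averaged 2.16 ± 2.12 (SD over 4 pigs each). This gave a log2 FC of 3.21 (standard error 0.63) and a two-sided p = 0.029 from exact permutation. By the size of this log2 FC A2M ranked 3 among the 458 genes, while by mean count, not corrected for length, it ranked 440.

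Few reads stand behind these values. A2M had 82 reads in the 4 AL libraries and 10 in the 4 BI libraries. The ratio of the pooled rates, AL over BI, was 11.9 with an exact 95% interval of 6.15 to 25.7, which covers counting error only. In BI replicate 25 no read was found, which allows up to 2.29 normalized counts, the value of 3 reads in that library. The coefficient of variation among pigs was 30.7% in AL and 98.2% in BI, where counting alone would give 22.5% and 63.5%. The log2 FC depended on the pseudocount, and was 4.40 with 0.1 and 1.45 with 10. A pseudocount cannot change the order of the pigs in a single gene, so whether the breeds overlap is not tested by it.

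PZP, a related gene of the same family, begins and ends upstream of A2M on the same strand, 10212 bp away. None of the 3979 sequences of 30 bases in the A2M exons was shared with PZP or with LOC100524679, the next related gene.

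MMP24 (ENSSSCG00000040160) encodes a membrane-anchored matrix metalloprotease and lies on chromosome 17 from 38587230 to 38636628 on the plus strand. It had 572, 611, 461 and 756 normalized counts in AL replicates 44, 49, 52 and 63. In BI replicates 25, 34, 36 and 37 it had 330, 240, 316 and 377. AL replicate 63 was the highest pig and BI replicate 34 the lowest, and every AL pig exceeded every BI pig. AL averaged 600 ± 122 and BI averaged 315 ± 56.8 (SD over 4 pigs each). This gave a log2 FC of 0.92 (standard error 0.20) and a two-sided p = 0.029 from exact permutation.

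Between 334 and 674 reads per library were counted on MMP24, so counting error was small. The coefficient of variation was 20.3% in AL and 18.0% in BI, against 4.49% and 5.08% from counting alone. The separation of the breeds depended on the scaling. When size factors were recomputed over the 458 genes by the median of ratios, the median log2 FC of all 458 genes moved from 0.83 to 0.31, and the log2 FC of MMP24 to 0.41 (p = 0.057, exact permutation test). With the upper quartile the median moved to 0.18 and MMP24 to 0.28 (p = 0.114, exact permutation test). Both scalings were computed on genes selected for a breed difference, of which 263 were higher in AL and 195 in BI. They moved the genes of the table toward BI, which lessens a difference toward AL and enlarges one toward BI. They cannot show how MMP24 would behave under another scaling over all genes.

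The 3′ end of MMP24 lies 1667 bp from the 3′ end of EIF6, a translation initiation factor gene on the opposite strand. The authors' mean count over the 8 pigs was 96.5 per kb of exon for MMP24 and 8.36 per kb for EIF6. The libraries were stranded, but the strand setting of the read counting is not given in the sources used here, and its part in these values was not tested.

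ADAMTS10 (ENSSSCG00000026994), a secreted protease known for its tie to fibrillin microfibrils, lies on chromosome 2 from 70734234 to 70751205 on the plus strand. It had 50.4, 41.7, 59.1 and 42.5 normalized counts in AL replicates 44, 49, 52 and 63. In BI replicates 25, 34, 36 and 37 it had 151, 122, 109.6 and 78.3. The lowest BI pig was 1.32 times the highest AL pig. AL averaged 48.4 ± 8.13 and BI averaged 115 ± 29.9 (SD over 4 pigs each). This gave a log2 FC of −1.21 (standard error 0.23) and a two-sided p = 0.029 from exact permutation. With the median of ratios and the upper quartile the log2 FC was −1.72 and −1.84, with the breeds apart in both. Both scalings move the genes of the table toward BI, as given for MMP24. The spread in AL, a coefficient of variation of 16.8%, was close to the 15.7% that counting alone would give, whereas in BI it was 26.0% against 8.33%.

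ADAMTS10 lies within the span of a long non-coding RNA gene on the opposite strand, LOC106507295, with 0 bp of shared exon. Its RefSeq model holds only the coding sequence, so untranslated ends are missing from its length here.

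ADAM15 (ENSSSCG00000006533), a membrane-anchored protease with a disintegrin domain, lies on chromosome 4 from 94736639 to 94748093 on the minus strand. It had 23.7, 24.5, 25.8 and 35.9 normalized counts in AL replicates 44, 49, 52 and 63. In BI replicates 25, 34, 36 and 37 it had 86.4, 67.3, 59.5 and 33.3. BI replicate 37 was below AL replicate 63 and above the other 3 AL pigs. AL averaged 27.5 ± 5.66 and BI averaged 61.6 ± 22.0 (SD over 4 pigs each). This gave a log2 FC of −1.08 (standard error 0.31) and a two-sided p = 0.057 from exact permutation. In limma, which shares the estimate of the spread over the 458 genes, the adjusted p was 0.00775. Since the overlap rests on 1 pig of each breed, the breeds were by construction apart without AL replicate 63 (log2 FC −1.21) or without BI replicate 37 (log2 FC −1.34). They were also apart under both recomputed scalings (log2 FC −1.58 and −1.71), which lowered the median of all 458 genes by similar amounts, as given for MMP24. Since these scalings move the genes of the table toward BI, they add no support for a difference in ADAM15. RefSeq gives ADAM15 17 transcripts with 19 to 24 exons, and the counts are per gene, so isoforms were not resolved.

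Levels can be compared between genes only per length. Per kb of RefSeq exon, MMP24 was the highest of the 4 genes in both breeds, at 126.5 ± 25.7 in AL and 66.5 ± 12 in BI (normalized counts per kb, SD over 4 pigs). ADAMTS10 was next, with 14.6 ± 2.46 in AL and 34.8 ± 9.05 in BI per kb of coding length. ADAM15 had 4.98 ± 1.03 per kb in AL and 11.2 ± 3.99 in BI. A2M had 4.65 ± 1.43 per kb in AL and 0.428 ± 0.420 in BI. In AL the ranges of A2M and ADAM15 per kb overlapped, from 2.63 to 5.87 and from 4.30 to 6.51. In BI they did not, since the highest A2M value was 0.826 and the lowest ADAM15 value 6.05.

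The balance between 2 genes in the same pig does not depend on the size factor, apart from the pseudocount. The log2 ratio of A2M to MMP24 averaged −4.66 ± 0.72 in AL pigs against −6.94 ± 1.07 in BI pigs (SD over 4 pigs each), a difference of 2.29 (standard error 0.65), with p = 0.029 in the exact permutation test and 0.034 after adjustment over 6 pairs. With a pseudocount of 10 this difference was 0.55 and the breeds overlapped. The ratio of A2M to ADAM15 differed by 4.29 (standard error 0.92) and that of A2M to ADAMTS10 by 4.42 (standard error 0.79), both with the same p. These too depended on the pseudocount, with 2.34 and 2.52 at a pseudocount of 10 and 5.50 and 5.62 at 0.1, and the breeds stayed apart. The ratio of MMP24 to ADAM15 differed by 2.0 (standard error 0.39) and that of MMP24 to ADAMTS10 by 2.13 (standard error 0.38), again with the same p. In these 5 pairs the breeds did not overlap. For ADAMTS10 with A2M or MMP24 this was fixed in advance, since the single genes were each apart in opposite directions. For ADAM15 with A2M or MMP24 it was nearly so, as only 1 BI pig lay below 1 AL pig in ADAM15. The p-values of those pairs thus add no evidence beyond the single genes.

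The ratio of ADAM15 to ADAMTS10 was the one pair whose breeds overlapped. The log2 ratio was −1.06, −0.75, −1.17 and −0.24 in AL replicates 44, 49, 52 and 63. In BI replicates 25, 34, 36 and 37 it was −0.79, −0.84, −0.87 and −1.21. The difference was 0.13 with a standard error of 0.23 (p = 0.657 in the exact permutation test) and a 97.1% interval from −0.37 to 0.97, so a shift of up to 0.97 is within what 8 pigs allow.

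**Figure D2:**
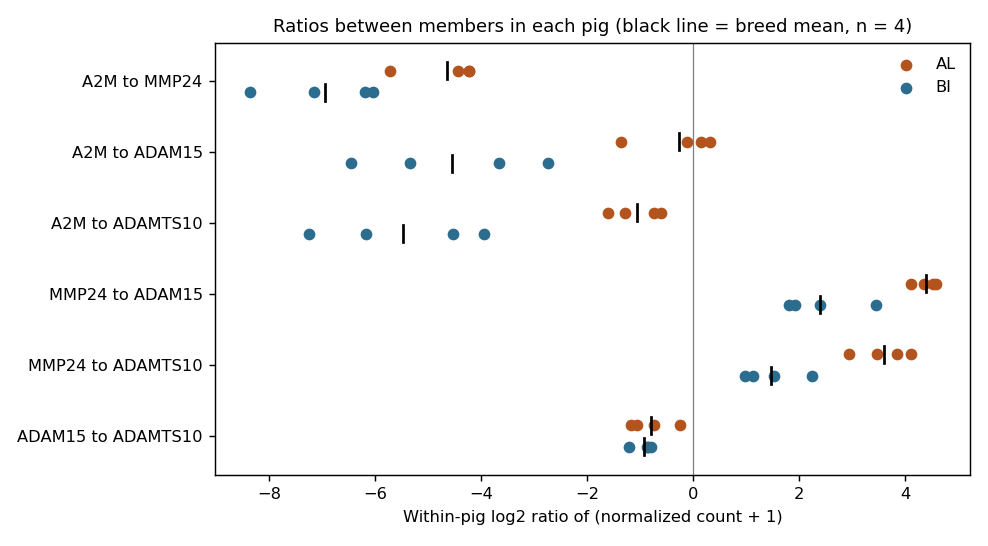
Log2 ratio of (normalized count + 1) between each pair of the 4 genes within each pig, with each point a pig and the black line the mean of 4 pigs per breed. The breeds are apart in 5 pairs and overlap in the ratio of ADAM15 to ADAMTS10, with means of −0.80 in AL and −0.93 in BI.

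The order of the BI pigs was also shared. In both ADAM15 and ADAMTS10 the highest BI pig was replicate 25, followed by 34, 36 and 37, an order found in 38 of the 458 genes (8.3%), and A2M had the exact reverse, an order found in 90 genes (19.7%). The A2M order rests on 0, 1, 4 and 5 reads, so the ranks within the lower and the upper pair of pigs are within counting error. BI replicate 37 was the BI pig nearest to AL in all 4 genes, and in 229 of the 458 genes (50%), a comparison chosen after the values were seen and subject to the same limit in A2M. The likeness of ADAM15 and ADAMTS10 was measured as the mean absolute difference of their log2 values over the 8 pigs after each gene was centred on its own mean, and was 0.21. For the other 5 pairs it was between 1.02 and 2.21.

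By the same measure the named genes nearest to A2M were PXK (0.36), TMEM71 (0.44) and TXNRD2 (0.48), where the median over all named genes was 1.21. The nearest to MMP24 were CPSF7 (0.097), FAM161B (0.10) and IDH3G (0.12), with a median of 0.64. APOD (0.12), which encodes the lipid carrier apolipoprotein D, SYNE3 (0.16) and TIE1 (0.17), an endothelial receptor kinase, were nearest to ADAM15, with a median of 0.99. PLEKHG5 (0.11), AKAP17A (0.12) and CREBBP (0.15), a transcriptional coactivator, were nearest to ADAMTS10, with a median of 1.02. All genes in this comparison had been selected for a breed difference, so likeness over the 8 pigs is in part the shared direction between breeds.

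In all, 3 lists of genes around the 4 members were examined, all taken with earlier results of these data known. The first holds 6 other proteases and protease inhibitors of the per-pig table. Of these, 3 were higher in AL without overlap, namely CSTB, the cathepsin inhibitor cystatin B (log2 FC 1.05, standard error 0.32), RHBDL1, a rhomboid protease (0.95, standard error 0.09), and CTSD, the lysosomal protease cathepsin D (0.91, standard error 0.16). ITIH4, an inter-alpha-trypsin inhibitor heavy chain, was higher in BI (log2 FC −0.99, standard error 0.29), with 305 ± 104 normalized counts in AL and 588 ± 106 in BI (SD, n = 4). SERPINE3 (log2 FC 1.24) and CLEC3B, the plasminogen-binding protein tetranectin (log2 FC −0.86), overlapped between the breeds, with p = 0.057 each in the exact permutation test. Without overlap, 3 of the 6 were thus higher in AL and 1 in BI, beside 48.3% and 31.2% of the 458 genes. The median log2 FC was 0.93, and 0.83 over the whole table.

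The second list holds 13 matrix and basement membrane proteins. Whether MMP24, ADAM15 or ADAMTS10 cut any of them was not tested. All 13 were taken from the per-pig table. Of these, 6 were higher in AL and 4 in BI without overlap, and 3 overlapped, beside 48.3% and 31.2% of the 458 genes without overlap in the same directions. Matrix genes with a mean count only, such as COL1A1, COL3A1 and DCN, are not in this list. Higher in AL were THBS4 (log2 FC 2.39), SPP1, which encodes osteopontin (2.08), ACAN, which encodes the proteoglycan aggrecan (1.61), the collagen crosslinking enzyme LOXL2 (1.12), LAMB1 (1.03) and CHAD (0.66). Higher in BI were THBS3 (log2 FC −1.53), AGRN (−1.46), LAMB2 (−1.01) and PXDN (−0.69). The 2 laminin beta chains of basement membranes thus differed in opposite directions, with LAMB1 at 217 ± 46.7 in AL and 107 ± 29.1 in BI and LAMB2 at 101 ± 6.38 and 210 ± 57.7 (normalized counts, SD, n = 4). ELN (log2 FC −1.48, p = 0.057), COL2A1 (−1.09, p = 0.057) and TNXB (−1.07, p = 0.114, exact permutation tests) had higher means in BI but overlapped. The median log2 FC of the list was −0.69, beside 0.83 for all 458 genes. This median is the value of PXDN, since 6 genes had higher means in AL and 7 in BI. It therefore does not show a shift of the list toward BI.

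The third list holds 11 genes taken here as regulators of acute-phase genes, which encode plasma proteins made by the liver in inflammation. Whether FOS, JUND, ATF3 and EGR1 act in this way in back fat was not tested. A2M is a major protein of this class in the rat, whereas in the pig that place belongs to ITIH4. Of the 11, 6 were in the per-pig table. IL6R, IL6ST, SOCS3 and NR3C1 had a mean count only, and JAK2 had none. STAT3 (log2 FC −0.90, standard error 0.16), FOS (−1.21, standard error 0.40) and EGR1 (−1.28, standard error 0.39) were higher in BI without overlap, the opposite direction to A2M. These are 3 of 6 genes, beside 31.2% of the 458 genes higher in BI and 79.5% in either direction. ATF3 (−2.17), JUND (−0.70) and CEBPA (0.95) overlapped, with p = 0.057 each in the exact permutation test. The median log2 FC of the 6 genes was −1.06, beside 0.83 for all 458.

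**Figure D3:**
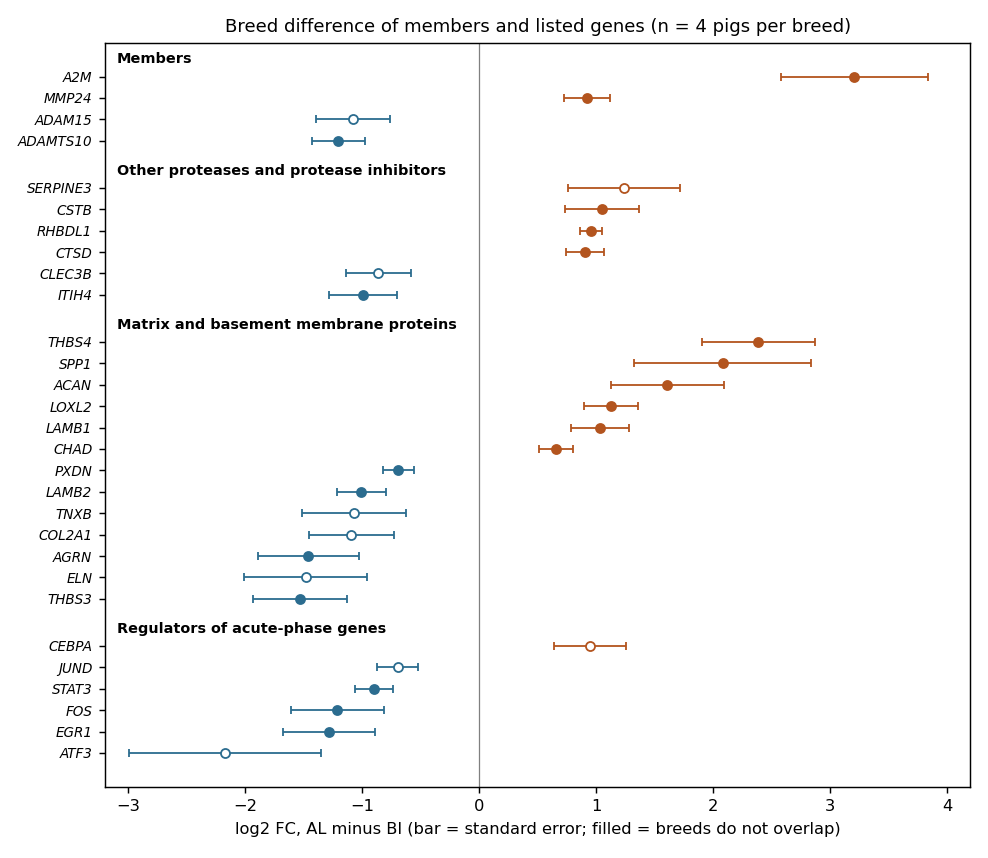
Log2 FC, AL minus BI, of the 4 members and of the genes of the 3 lists found in the per-pig table, with bars showing the standard error (n = 4 pigs per breed) and filled points the genes whose breeds did not overlap. A2M, at 3.21, has the largest log2 FC among the genes plotted, and members of the matrix list fall on both sides of 0.

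Markers of fat cells were measured in these samples, since all 7 adipocyte markers had a mean count, from 77.5 for LEP to 1567 for PLIN1. Of these, 2 had values per pig, FABP4, the fatty acid carrier of fat cells, with a log2 FC of 1.10 (standard error 0.23) and no overlap, and LEP, the leptin gene, with 1.37 (standard error 0.58) and overlap. Their sum was between 907 and 1226 normalized counts in AL and between 402 and 665 in BI, the direction of A2M and MMP24. The part of this sum in those results was not tested. Both genes have values per pig only because the authors called them different between breeds, so the sum does not stand for the other adipocyte markers. For ADIPOQ the paper reports a numerically higher level in BI that was not statistically different. The hepatocyte marker ALB, the gene of serum albumin, had a mean of 6.18 and the apolipoprotein gene APOA1 a mean of 193, while the other 2 of the 4 hepatocyte markers had no mean count. The mean of APOA1 exceeded those of the adipocyte markers ADIPOQ (173), CIDEC (101), LPL (97.7) and LEP, not corrected for length. As for MMP24, the strand setting of the read counting is not given, and its part in the counts of all these markers was not tested. Endothelial markers are given because ADAM15 is known from endothelium and TIE1 was among its nearest genes. Of 8 endothelial markers, 7 had a mean count and 3 a value per pig. TIE1 (log2 FC −1.41) and CLEC14A (−1.06) were higher in BI without overlap, as ADAMTS10 was, while EGFL7 was higher in AL (0.89). The sum of the 3 was between 2182 and 3642 normalized counts in AL and between 1386 and 1982 in BI, and was almost wholly EGFL7, whose mean count was 2257 beside 26.4 for TIE1 and 26.8 for CLEC14A. The part of the cell makeup in the results was not tested, and in bulk tissue fewer cells of a type and less RNA per cell cannot be told apart.

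Of 7 skeletal muscle markers, 5 had a mean count, namely CKM (987), MYBPH (148), MYH7 (14.5), ACTA1 (5.0) and TNNT3 (4.49), and MYH1 and MYH2 had none. The sum of MYBPH and MYH7 was between 183 and 268 normalized counts in AL and between 93.4 and 140 in BI, and its part in the results was not tested. The 2 genes lay in opposite directions, with MYBPH at a log2 FC of 1.19 and MYH7 at −2.04, the latter with overlap. Fibroblast markers (5 of 6) and macrophage markers (5 of 6) had a mean count but no value per pig.

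Of the 57 ADAM, ADAMTS and MMP gene symbols in the names table, 26 were among the 10710 genes with a mean count, which is the authors' mean over the 8 pigs. Of these 26, 3 had values per pig, against 4.28% of the 10710 genes. Per kb of exon, MMP24 had a mean count of 96.5, below MMP19 with 287 and above ADAM17, the sheddase of TNF, with 61.3 and the gelatinase MMP2 with 44.8. ADAMTS10 had 24.7 per kb of coding length, and the next ADAMTS genes were ADAMTS15 with 17.4 and ADAMTS4 with 12.4 per kb of exon. ADAM15 had 8.08 per kb, between ADAM17 and ADAM33 with 6.35. These are means without a spread over pigs, so the order of neighbouring genes was not tested.

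Tissue inhibitors of metalloproteases were also counted. TIMP3 had a mean count of 20.4 per kb, TIMP1 13.1, TIMP4 1.07 and the membrane inhibitor RECK 0.917, and none of the 4 had values per pig. A2M, with 2.54 per kb, lay between C4A (7.47) and C3 (1.53), complement genes of its protein family.

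MMP19, MMP24 and ADAM17 each have a gene on the opposite strand whose 3′ end lies within 5 kb of their own or overlaps it. Of the 25 ADAM, ADAMTS and MMP genes with a length, 9 had an opposite-strand exon overlap or such a 3′ end. Among these were genes with low counts, such as ADAM19 (1.28 per kb) and ADAM12 (1.83 per kb). Of the 8404 genes with a mean count that were matched to RefSeq, 47.4% had an exon overlap or such a 3′ end, with a median of 8.0 per kb, against 2.74 per kb for the genes with neither. No such 3′ end was found for A2M, ADAM15 or ADAMTS10.

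**Figure D4:**
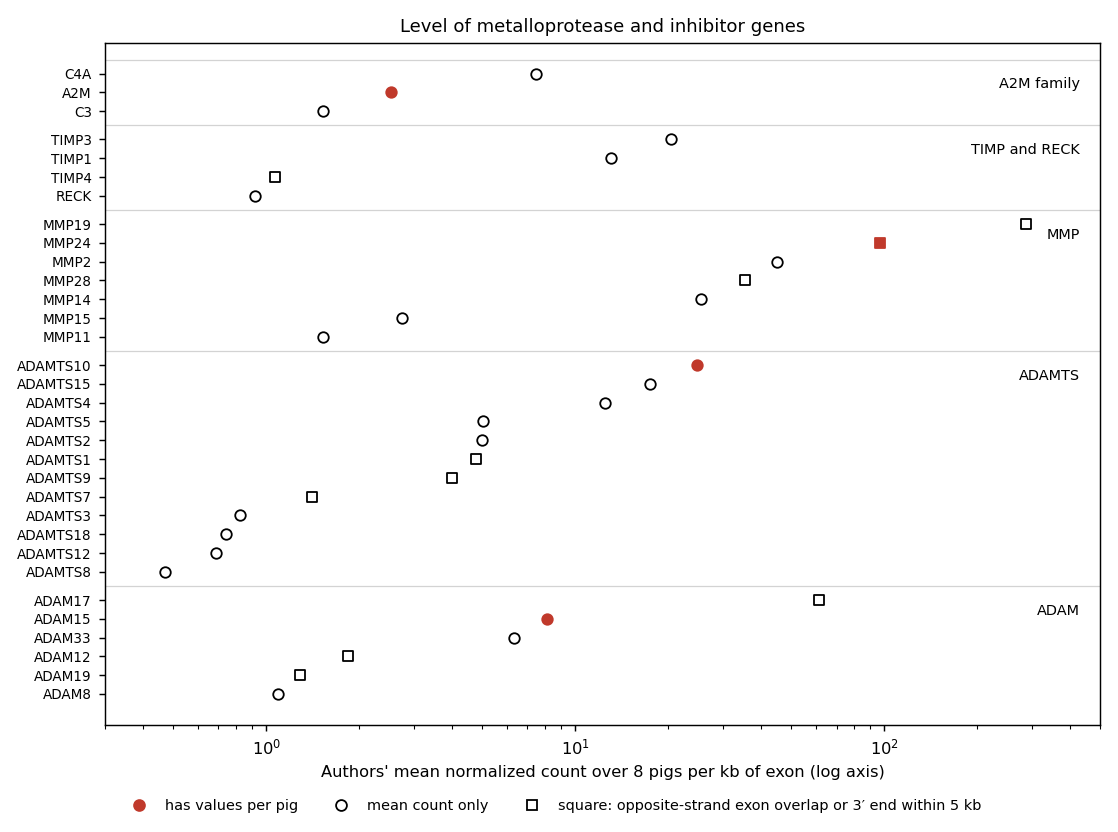
Authors' mean normalized count over the 8 pigs per kb of exon (log axis) of the listed ADAM, ADAMTS and MMP proteases, the TIMP and RECK inhibitors and the alpha-2-macroglobulin family, each point a gene, filled points the 4 genes with values per pig and squares the genes with an opposite-strand exon overlap or 3′ end within 5 kb. MMP24 has 96.5, ADAMTS10 24.7 (coding length only), ADAM15 8.08 and A2M 2.54, and ADAM21, with no length, is not drawn.

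In the 250 bases before the annotated start, ADAM15 held 1 GGGCGG, a motif found on either strand in 44.5% of 20651 promoters. MMP24 held 1 TTCNNNGAA, found in 6.38% of them. The A2M window held neither, and none of the windows of A2M, MMP24 and ADAM15 held TGANTCA (found in 5.48% of promoters) or a TATAAA (10.4%). The 250 bases before the ADAMTS10 model held none of the 4 motifs, but that model begins at the start codon, so this window need not be a promoter.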

How the data were processed

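Total RNA of dorsal subcutaneous fat was sequenced as mRNA with stranded, paired-end reads. Per the study's methods and the submitters' processing notes, the authors trimmed reads with Trim Galore 0.5.0, aligned them to Sscrofa11.1 (Ensembl annotation) with HISAT2 2.1.0, used SAMtools 1.9, counted reads per gene with HTSeq 0.11.1 and normalized them with DESeq2. The deposited values used here are a signal, namely normalized counts per pig for the 458 genes the authors called different between breeds, and the authors' mean normalized count over all 8 pigs for 10710 genes. Columns of both tables that hold the authors' own fold changes, standard errors and p-values were not used. In each pig, 100% of the values were whole multiples of 1 read within 0.01, from which reads and size factors were derived. These reads serve only to describe counting error. Count models were not run on them, because in 5 of the 8 columns the low values were too few, or held no value of 1 read, for the reads to pass a separate check as recovered counts.

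Groups came from the labels. Nothing in the labels names a batch. The exact p-values describe how far apart the breeds lay, with each pig as 1 unit and 4 pigs per breed. The 4 genes were matched by name. The members and lists were chosen with earlier results of these data known. The text names the 4 members, all genes of the 3 lists, part of the families and markers, and the 3 named genes nearest to each member. Breeds were compared by a two-sided exact permutation test over 70 splits of mean log2(normalized count + 1), with Benjamini-Hochberg adjustment over the 6 ratios. Alternatives were other pseudocounts (0.1 and 10), scalings, medians, a rank test, limma 3.58.1, a filter on low means and leaving out each pig. Count-ratio intervals are exact conditional binomial at 95%. Symbols were found for 8923 of the 10710 genes and 411 of the 458. Coordinates and sequences are from RefSeq, Sscrofa11.1. Python 3.11.15, SciPy 1.17.1, pandas 2.3.3 and R 4.3.3 were used, and the tests were checked on simulated data.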

Additional observations from a re-analysis of the deposited data

Results flagged for a closer look

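A pig was taken to stand apart when its gap to the nearest pig of its breed, divided by the range of the breed, exceeded Dixon's 95% critical value for 4 pigs. Of 84 groups of 4 pigs examined, 7 did so, where chance gives about 1 in 20. Of the 4 members, only a ratio was concerned: the log2 ratio of A2M to MMP24 was −5.73 in AL replicate 63 and at least −4.44 in the other AL pigs (gap over range 0.857). Among the listed genes, THBS4 had 24.0 normalized counts in BI replicate 34 and at most 6.88 in the other BI pigs (0.942). LOXL2 had 110.2 in AL replicate 63 and at most 66.2 in the other AL pigs (0.899). CHAD had 1762 in BI replicate 37 and at most 1292 in the others (0.884). JUND had 360 in the same pig and at least 524.4 in the others (0.87). EGR1 had 404.4 in BI replicate 36 and at most 299.1 in the others (0.872). LEP, the gene of the fat-cell hormone leptin, had 86.0 in BI replicate 36 and at most 32.1 in the other BI pigs (0.871).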

How the results depend on the processing

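Over the 4 log2 FC and 6 ratios, 136 alternative values were computed, of which 134 kept their direction and 126 also their side of the threshold. Many of these values could not change side, so the count is not a measure of robustness. Leaving out a pig cannot make breeds that are apart overlap, and a pseudocount keeps the order of the pigs within a gene. The rank test passes only without overlap, and breed means and medians were given the side of the main result. MMP24 fell short of it with the median of ratios (0.41, p = 0.057) and the upper quartile (0.28, p = 0.114, exact permutation tests). ADAM15 passed it under the same scalings (−1.58 and −1.71) and with limma (−1.08). Both scalings rest on genes selected for a breed difference and move them toward BI. The ratio of A2M to MMP24 fell short of the threshold with a pseudocount of 10 (0.55). The ratio of ADAM15 to ADAMTS10 turned to −0.060 without AL replicate 63 and to −0.044 for the difference of medians. The cause was not tested. Leaving out each pig gave 2.76 to 3.55 for A2M, 0.80 to 1.04 for MMP24, −1.34 to −0.89 for ADAM15, −1.38 to −1.07 for ADAMTS10 and −0.06 to 0.25 for the ratio of ADAM15 to ADAMTS10. With 1 pig left out the smallest p is 0.057, so passing there means that the breeds did not overlap. Genes without overlap numbered 364 of 458 as deposited (221 higher in AL, 143 in BI), 273 with the median of ratios (102 and 171) and 236 with the upper quartile (60 and 176). The planned count-model alternatives were not run. Depth limits A2M most, with 10 reads in all BI libraries. No paired analysis was possible because the breeds share no replicate numbers.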
